A study of Mus musculus with 12 samples.

Results

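The genes described here are 44 regulators of chromatin and DNA methylation, read across cultured cells of the mouse subventricular zone. They comprise 3 DNA methyltransferases, 3 TET enzymes, 4 core genes of Polycomb repressive complex PRC2, 6 genes of PRC1, 2 histone demethylases, 3 H3K4 methyltransferases, 3 H3K9 methyltransferases, 3 class I and 5 class II or IV histone deacetylases (HDACs), the sirtuin Sirt1, 6 subunits of the BAF remodelling complex, 2 CHD remodellers, the acetyltransferases Crebbp and Ep300, and their nuclear partner Ankrd11. The members were listed by symbol and function and matched to the table through GENCODE release M21 of the mouse genome (GRCm38). All 44 were found among its 55401 gene identifiers, and all 44 were among the 16135 genes that passed the filter on low counts.

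RNA was measured in 12 libraries of primary cells from CD1 mice, with 4 libraries in each of 3 groups. Postnatal oligodendrocyte precursor cells (OPC) came from pups of postnatal day 0 to 2. They were made by plating dissociated primary neurosphere cells as a monolayer for 2 days in medium with 10 ng/mL PDGF-AA and the same concentration of FGF. Adult neural stem cells (NSC) came from animals aged 2 months and postnatal NSC from pups of postnatal day 0 to 2. Both were grown as neurospheres, floating clusters of stem and progenitor cells, over 6 to 7 days in EGF at 20 ng/mL, heparin at 2 µg/mL and FGF at 10 ng/mL. Every medium was free of serum and held 2% B27, and the labels state no treatment. Postnatal OPC and postnatal NSC therefore differ in growth factors and in growth as a layer or as spheres as well as in cell type, and these cannot be told apart. Postnatal OPC and adult NSC differ in age as well. The labels describe 4 independent litters, and do not say whether equal replicate numbers stand for one litter.

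Chromatin regulators set which genes a cell can use without changing the DNA sequence. PRC2 methylates lysine 27 of histone H3 and PRC1 ubiquitylates histone H2A, and both hold developmental genes silent, while KMT2 enzymes, acetyltransferases and BAF remodellers favour open chromatin. HDACs remove histone acetyl groups, DNA methyltransferases place and maintain methyl groups on cytosine, and TET enzymes oxidise them. In neural cells these enzymes take part in the choice between self-renewal, neurogenesis and gliogenesis, and HDAC activity, Smarca4 and Chd7 are known to act in the oligodendrocyte lineage.

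Libraries of postnatal OPC held 17226501 to 23651396 counts, those of adult NSC 16756231 to 20064043 and those of postnatal NSC 38928989 to 54801726. The OPC marker Pdgfra had 1032 to 2496 CPM (read counts scaled to the TMM-normalised library size) in postnatal OPC, 8.14 to 15.1 CPM in adult NSC and 155 to 284 CPM in postnatal NSC. The stem and progenitor marker Nes had 456 to 856 CPM, 1952 to 2129 CPM and 1337 to 1635 CPM in the same groups. The stem list did not all follow Nes. By calls as defined below, 5 of its 12 genes were higher and 4 lower in postnatal OPC than in adult NSC (all genes, 26.3% and 24.7%). Against postnatal NSC they were 3 and 7 (all genes, 22.4% and 22.7%). Summed OPC markers were 10466 to 15368 CPM in postnatal OPC, 5134 to 5433 CPM in adult NSC and 6133 to 6476 CPM in postnatal NSC. Both neurosphere groups thus held RNA of the OPC list. In adult NSC this was mostly RNA of Ptprz1, Olig1 and Olig2, at means of 2921, 1508 and 622 CPM. Sox10 and Gpr17 averaged 12.4 and 4.93 CPM in adult NSC, and 136 and 543 CPM in postnatal NSC. The sum is therefore not a measure of the share of OPC. Summed levels of the microglial, endothelial, pericyte, choroid plexus and erythroid lists stayed at or below 15.9 CPM in every library, with Cx3cr1 and Alas2 at 0. The ependymal list reached 49.97 CPM in postnatal NSC. In bulk RNA a smaller share of cells that express a gene and less RNA of it per cell cannot be told apart. A pair of libraries stood apart in 24 genes of DNA replication and the G1/S transition (Mcm2 to Mcm7, Pcna and others). Their mean log2 CPM was 4.28 in postnatal OPC 2 and 4.65 in postnatal NSC 3, against 5.66 to 6.48 in the other 10 libraries. Y-linked genes were near 0 in adult NSC 1 and in postnatal NSC 2 and 3, so that the groups differed in their mix of male and female cells.

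Across the module, calls ran in both directions in every comparison and their number was close to that of all genes. A gene was called at a Benjamini-Hochberg adjusted p under 0.05 in edgeR's quasi-likelihood test over all genes, and "higher", "lower", "rose" and "fell" are used below for called genes. In postnatal OPC against postnatal NSC, 10 members were higher, 11 were lower and 23 were not called, where 45.1% of all genes tested were called (22.4% higher and 22.7% lower). In adult NSC against postnatal NSC, 15 were higher, 12 lower and 17 not called, against a background of 53.1% (25.2% higher and 27.9% lower). Set against adult NSC, postnatal OPC had 12 members higher, 11 lower and 21 not called, against 51.0% (26.3% higher and 24.7% lower). Median log2 fold changes of the 44 members were -0.02, 0.11 and 0.02 in these comparisons, and those of all genes -0.01, -0.03 and 0.01. Each group enters 2 of the comparisons, which are therefore not independent of one another. Of the 44 members, 35 were called in at least 1 comparison and 9 in none, namely Dnmt1, Tet1, Ezh2, Cbx2, Smarca4, Chd8, Crebbp, Ep300 and Ankrd11. The share of all genes called in at least 1 comparison was not counted, so that these numbers do not set the members apart.

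**Figure D1:**
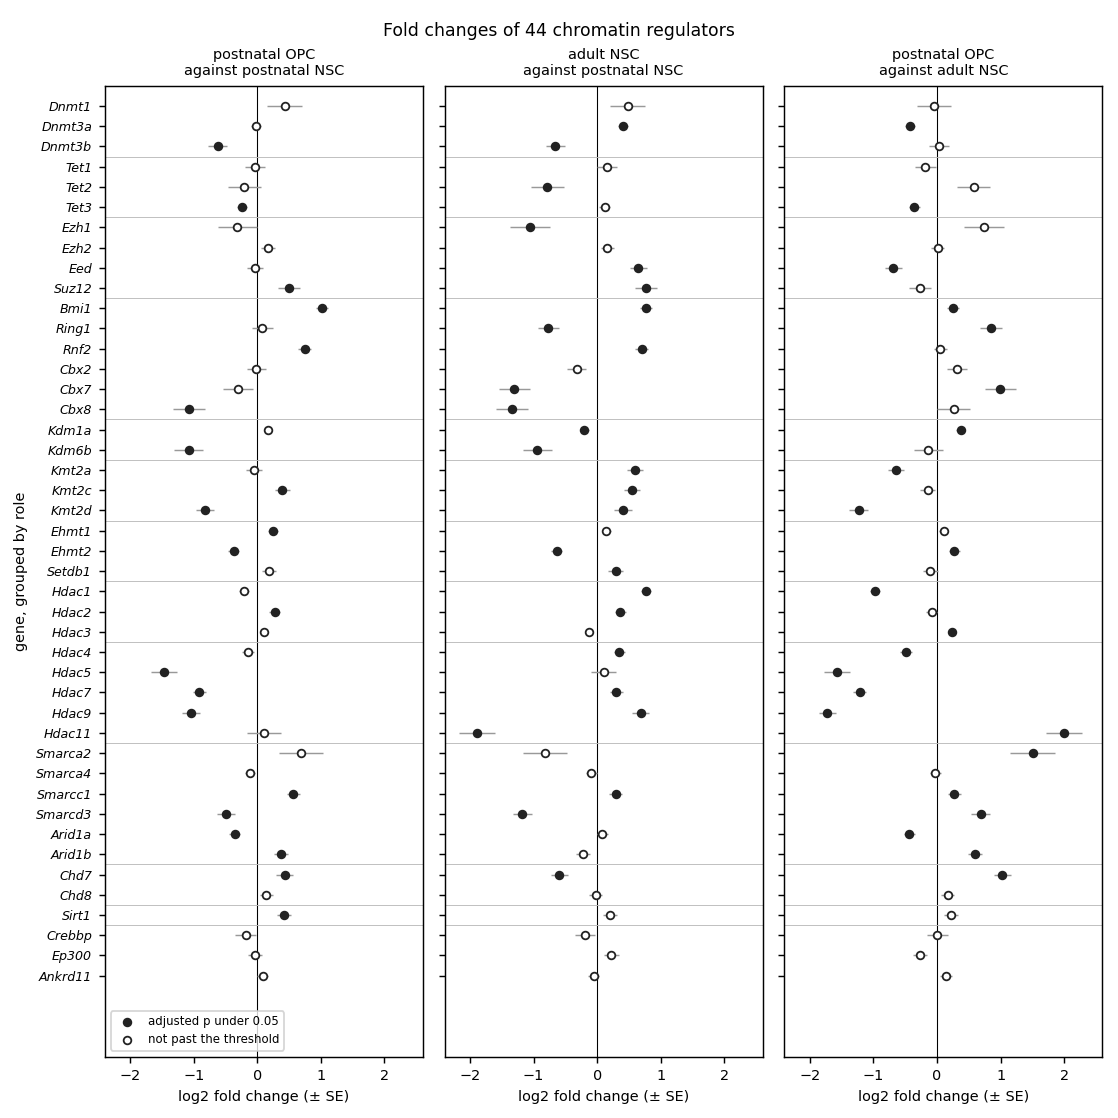
Log2 fold change (horizontal axis) of each of the 44 members (rows, grouped by role) in the 3 comparisons, with bars for the standard error and filled points for an adjusted p under 0.05 in edgeR. Hdac5, Hdac7, Hdac9 and Kmt2d lie left of 0 in both comparisons of postnatal OPC, while Hdac11 lies at -1.89 in adult NSC against postnatal NSC and at 2.00 in postnatal OPC against adult NSC.

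**Figure D2:**
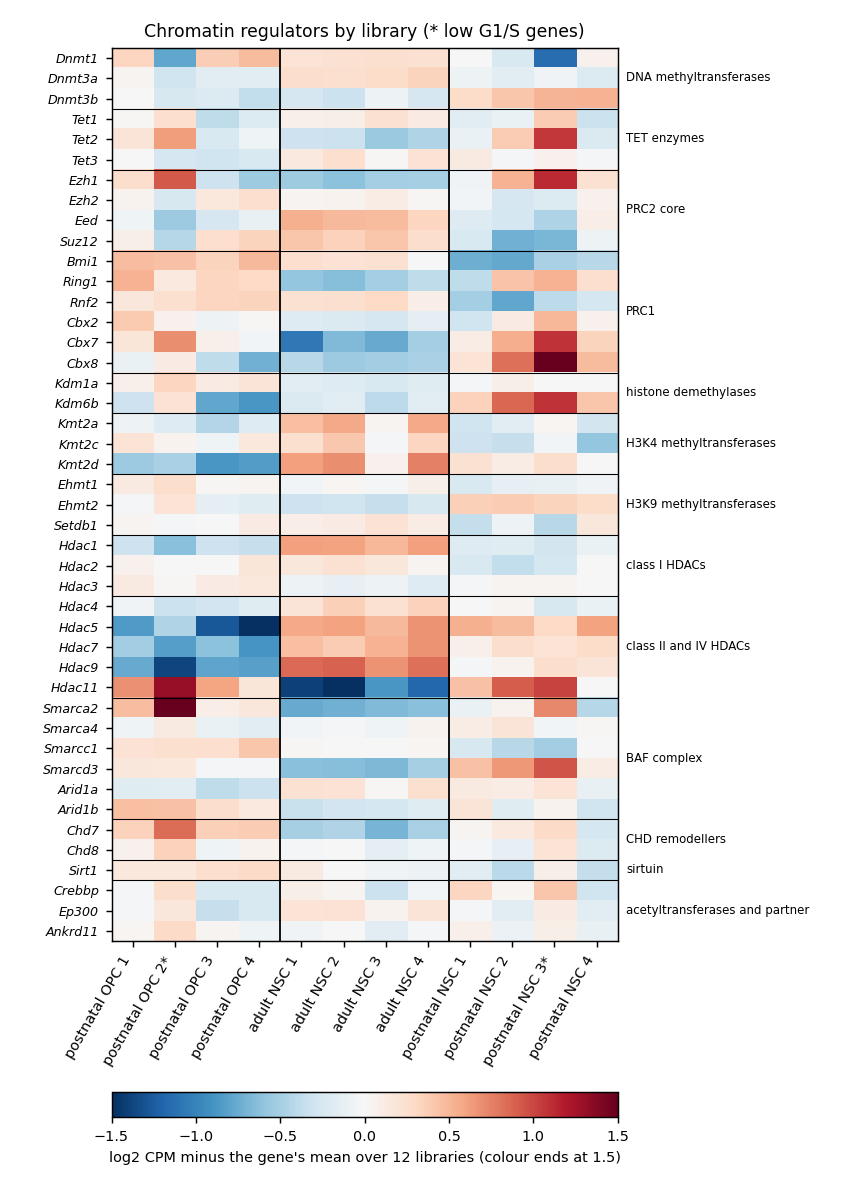
Log2 CPM of the 44 members (rows) in the 12 libraries (columns), each centred on the gene's mean over the libraries, with red above and blue below that mean and an asterisk on the libraries with low G1/S genes. Smarca2 in postnatal OPC 2 and Cbx8 in postnatal NSC 3 are at the red end of the scale.

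Among the DNA methyltransferases, Dnmt3a was highest in adult NSC and Dnmt3b in postnatal NSC. Levels of single libraries are listed in the order of replicates 1 to 4. Dnmt3a, a de novo methyltransferase (chr12:3806007-3914443, plus strand), had 149.5, 118, 129.6 and 129.8 CPM in postnatal OPC and 175, 173, 176 and 183 CPM in adult NSC. The Dnmt3a level in postnatal NSC was 138, 129, 140.0 and 126 CPM. All 4 adult NSC libraries lay above the other 8, with a log2 fold change of -0.42 ± 0.08, adjusted p = 0.000701 in postnatal OPC against adult NSC and 0.41 ± 0.08, adjusted p = 0.00104 in adult NSC against postnatal NSC (edgeR). Dnmt3b, the other de novo enzyme (chr2:153649450-153687730, plus strand), was near the bottom of the module, with 4.07, 3.42, 3.52 and 3.12 CPM in postnatal OPC and 3.38, 3.22, 3.83 and 3.39 CPM in adult NSC. The Dnmt3b level in postnatal NSC was 4.89, 5.37, 5.73 and 5.79 CPM. Its postnatal NSC libraries were all above the other 8, and it was lower both in postnatal OPC (log2 fold change -0.62 ± 0.15 (SE), adjusted p = 0.00455) and in adult NSC (log2 fold change -0.66 ± 0.15 (SE), adjusted p = 0.0031, edgeR). Of the 50-base stretches of Dnmt3b, 9.81% also occur in its copy Dnmt3c, so that part of its count may belong there.

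Dnmt1, which maintains methylation behind the replication fork (chr9:20907209-20959888, minus strand), had 384, 179, 397 and 428 CPM in postnatal OPC and 353, 359, 363 and 359 CPM in adult NSC. The Dnmt1 level in postnatal NSC was 308, 261, 139 and 321 CPM. The lowest library of postnatal OPC and the lowest of postnatal NSC were the pair with low G1/S genes, and groups overlapped between postnatal OPC and both others. No comparison passed the threshold (log2 fold change 0.43 ± 0.27 (SE), adjusted p = 0.214 in postnatal OPC against postnatal NSC; 0.48 ± 0.27, adjusted p = 0.153 in adult NSC against postnatal NSC, edgeR). Without those 2 libraries, Dnmt1 passed in postnatal OPC against postnatal NSC (0.44, adjusted p = 0.00105) and in adult NSC against postnatal NSC (0.26, adjusted p = 0.0127). It also passed in postnatal OPC against postnatal NSC without postnatal OPC 2 alone (0.62, adjusted p = 0.032).

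Of the TET enzymes, Tet2 and Tet3 were called and Tet1 was not. Tet3 (chr6:83362373-83459084, minus strand) had 134, 113, 109 and 115 CPM in postnatal OPC and 149, 160.2, 136 and 156 CPM in adult NSC. The Tet3 level in postnatal NSC was 148, 133, 141 and 133 CPM. It was lower in postnatal OPC than in adult NSC, without overlap (log2 fold change -0.36 ± 0.08 (SE), adjusted p = 0.00339), and lower than in postnatal NSC by a small margin, with overlap (log2 fold change -0.24 ± 0.08 (SE), adjusted p = 0.032, edgeR). The call of Tet3 in postnatal OPC against postnatal NSC was lost without postnatal OPC 3 or 4, or postnatal NSC 1 (adjusted p = 0.0544 to 0.0953), and with only the 2 groups compared in the fit, without both low-G1/S libraries, with a Y-linked covariate (adjusted p = 0.0607 to 0.0774). Tet2 (chr3:133463679-133545139, minus strand) had 46.8, 63.1, 35 and 39.1 CPM in postnatal OPC and 32.9, 32.6, 27.7 and 30 CPM in adult NSC. The Tet2 level in postnatal NSC was 38.1, 53.3, 85.3 and 35.1 CPM. All adult NSC libraries were below the other 8, and Tet2 fell in adult NSC against postnatal NSC (log2 fold change -0.78 ± 0.26 (SE), adjusted p = 0.0237, edgeR). The low-G1/S libraries were the highest of their groups. The call of Tet2 in adult NSC against postnatal NSC was lost without adult NSC 3 or 4, or postnatal NSC 3 (adjusted p = 0.0538 to 0.0718), and with a Y-linked covariate, with a G1/S covariate (adjusted p = 0.0518 to 0.0845). Tet1 (chr10:62804570-62908996, minus strand) had 34.9, 41.1, 26.4 and 29.8 CPM in postnatal OPC and 36.2, 36.5, 40.2 and 37.6 CPM in adult NSC. The Tet1 level in postnatal NSC was 30.9, 32, 44.9 and 27.6 CPM. It overlapped in all 3 comparisons and was not called (adjusted p = 0.884, 0.441 and 0.361 in the order above, edgeR).

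In the PRC2 core, Eed and Suz12 were higher in adult NSC than in postnatal NSC and Ezh1 was lower, while Ezh2 was not called. Ezh2, the main H3K27 methyltransferase of dividing cells (chr6:47530139-47595341, minus strand), had 146, 119, 158 and 168 CPM in postnatal OPC and 146, 147, 153 and 143 CPM in adult NSC. The Ezh2 level in postnatal NSC was 138, 119, 123 and 148 CPM. These ranges overlapped in all 3 comparisons. Ezh1, its paralogue of resting cells (chr11:101191115-101226463, minus strand), had 10.9, 17.2, 7.32 and 6.25 CPM in postnatal OPC and 6.28, 5.92, 6.36 and 6.42 CPM in adult NSC. The Ezh1 level in postnatal NSC was 8.72, 13, 19.7 and 10.6 CPM. Adult NSC lay below all postnatal NSC libraries (log2 fold change -1.06 ± 0.31 (SE), adjusted p = 0.0135, edgeR), and postnatal OPC overlapped both.

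Eed, which binds the H3K27 mark (chr7:89954654-89980983, minus strand), had 35.3, 25.3, 31.1 and 34.4 CPM in postnatal OPC and 53.4, 52, 51.3 and 46.2 CPM in adult NSC. The Eed level in postnatal NSC was 32.3, 30.7, 26.8 and 39.6 CPM. All adult NSC libraries exceeded the other 8, with a log2 fold change of 0.65 ± 0.13, adjusted p = 0.00152 in adult NSC against postnatal NSC and -0.69 ± 0.13, adjusted p = 0.000953 in postnatal OPC against adult NSC (edgeR). Suz12, the scaffold of the complex (chr11:79993106-80034123, plus strand), had 107, 74.5, 119 and 126 CPM in postnatal OPC and 134, 127, 133 and 120.1 CPM in adult NSC. The Suz12 level in postnatal NSC was 85.4, 60.7, 62.2 and 94.9 CPM. It was higher in adult NSC than in postnatal NSC without overlap (log2 fold change 0.76 ± 0.17 (SE), adjusted p = 0.00306), and higher in postnatal OPC than in postnatal NSC with overlap (log2 fold change 0.49 ± 0.17 (SE), adjusted p = 0.0338, edgeR). The call of Suz12 in postnatal OPC against postnatal NSC was lost without postnatal OPC 1, 3 or 4, or postnatal NSC 2 or 3 (adjusted p = 0.076 to 0.123), and with no filter on low counts, with only the 2 groups compared in the fit, with a Y-linked covariate (adjusted p = 0.0501 to 0.138).

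Start-site windows of Dnmt1, Ezh2 and Suz12 are shown because they hold a string typical of E2F sites, which drive many replication genes, and because Dnmt1 was the lowest of its group in both libraries with low G1/S genes, and Suz12 in postnatal OPC 2. They are the 250 bases before and 50 after an annotated start, from RefSeq on GRCm38.p6, read 5′ to 3′ on the gene's strand, and capitals mark TTTGGCGC (Dnmt1, Ezh2) or TTTCCCGC (Suz12). The Dnmt1 window belongs to a start inside the annotated gene, whose upstream end is at 20959888, and not to its outermost start. A part of these strings in the levels was not tested.
Dnmt1 promoter (chr9:20952574-20952873, minus strand): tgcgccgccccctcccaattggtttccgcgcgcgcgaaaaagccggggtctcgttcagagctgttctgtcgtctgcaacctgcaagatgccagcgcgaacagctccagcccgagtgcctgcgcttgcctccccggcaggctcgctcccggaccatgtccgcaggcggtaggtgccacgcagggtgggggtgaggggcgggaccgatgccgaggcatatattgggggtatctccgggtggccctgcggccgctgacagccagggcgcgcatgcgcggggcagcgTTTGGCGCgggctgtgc
Ezh2 promoter (chr6:47594981-47595280, minus strand): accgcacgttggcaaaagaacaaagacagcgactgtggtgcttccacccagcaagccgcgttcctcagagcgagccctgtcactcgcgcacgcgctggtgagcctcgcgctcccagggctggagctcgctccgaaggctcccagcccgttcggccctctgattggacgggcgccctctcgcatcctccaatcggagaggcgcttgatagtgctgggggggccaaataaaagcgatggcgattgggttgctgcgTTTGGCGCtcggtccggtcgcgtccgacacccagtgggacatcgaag
Suz12 promoter (chr11:79992856-79993155, plus strand): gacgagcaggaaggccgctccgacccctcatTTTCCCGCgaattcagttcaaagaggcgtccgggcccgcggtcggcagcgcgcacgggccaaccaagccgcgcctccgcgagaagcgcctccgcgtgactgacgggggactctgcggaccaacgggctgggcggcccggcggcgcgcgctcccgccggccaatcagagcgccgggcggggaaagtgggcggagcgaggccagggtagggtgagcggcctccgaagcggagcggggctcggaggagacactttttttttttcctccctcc
Besides these 3, Arid1a held TTTCCCGC, and its level was the highest of its group in both low-G1/S libraries. Ezh2 was the lowest of its group in postnatal OPC 2, and both Ezh2 and Suz12 lay within the range of the others in postnatal NSC 3. Both strands were searched in 49 windows of the 39 members that the table matched (not Cbx2, Hdac1, Hdac3, Kdm6b or Chd7). TTTGGCGC was in 4.08% of the members' windows, against 0.514% of all 32851 windows and 0.635% of the 21263 windows of protein-coding genes. TTTCCCGC was likewise in 4.08%, against 1.07% and 1.41%. These are 2 windows each, a match is a description and not a binding site, and the absence of these letters elsewhere says nothing about E2F.

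The PRC1 genes divided by subunit rather than moving together. Bmi1, a ring-finger subunit of canonical PRC1 required for self-renewal of neural stem cells (chr2:18677018-18686629, plus strand), had 151, 149, 138 and 153 CPM in postnatal OPC and 131, 127, 129 and 111 CPM in adult NSC. The Bmi1 level in postnatal NSC was 66.2, 64.4, 78.2 and 82.2 CPM. Postnatal OPC and adult NSC were both above postnatal NSC without overlap (log2 fold change 1.02 ± 0.09 (SE), adjusted p = 8.22e-06 for postnatal OPC; 0.77 ± 0.09, adjusted p = 5.9e-05 for adult NSC, edgeR), and postnatal OPC exceeded adult NSC by a smaller step (0.25 ± 0.09, adjusted p = 0.0382). The call of Bmi1 in postnatal OPC against adult NSC was lost without postnatal OPC 1 or 4, or adult NSC 1, 2, 3 or 4 (adjusted p = 0.0567 to 0.131), and with no filter on low counts, with the replicate block (adjusted p = 0.075 to 0.0831). Processed copies share 16.7% of the 50-base stretches of Bmi1, which leaves its count uncertain to that extent.

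Rnf2, the catalytic ubiquitin ligase (chr1:151458004-151500955, minus strand), was likewise lowest in postnatal NSC, with 83.5, 87.4, 92.6 and 93.4 CPM in postnatal OPC and 87, 87.4, 91.1 and 79.6 CPM in adult NSC. The Rnf2 level in postnatal NSC was 51.8, 43.1, 56.4 and 61.6 CPM. It was higher in postnatal OPC (log2 fold change 0.75 ± 0.10 (SE), adjusted p = 0.000122) and in adult NSC (log2 fold change 0.70 ± 0.10 (SE), adjusted p = 0.000197, edgeR) than in postnatal NSC, without overlap. Ring1, the alternative ligase, averaged 27.8 ± 2.96 CPM in postnatal OPC, 15.5 ± 1.2 CPM in adult NSC and 26.3 ± 6.57 CPM in postnatal NSC (SD, n = 4 each) and was lower in adult NSC than in postnatal NSC and higher in postnatal OPC than in adult NSC (-0.77 ± 0.17, adjusted p = 0.00263; 0.85 ± 0.17, adjusted p = 0.00132, edgeR).

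Of the chromodomain subunits that bind the H3K27 mark, Cbx8 (chr11:119036305-119040969, minus strand) had 15.6, 18.3, 12.9 and 10.2 CPM in postnatal OPC and 12.6, 11.4, 11.7 and 11.9 CPM in adult NSC. The Cbx8 level in postnatal NSC was 19.3, 29.7, 48 and 23.3 CPM. All postnatal NSC libraries were above the other 8, the highest being the low-G1/S library, and Cbx8 was lower in postnatal OPC (log2 fold change -1.08 ± 0.25 (SE), adjusted p = 0.00442) and in adult NSC (log2 fold change -1.34 ± 0.26 (SE), adjusted p = 0.00114, edgeR). The call of Cbx8 in postnatal OPC against postnatal NSC was lost with a Y-linked covariate (adjusted p = 0.05). Cbx7 (chr15:79915807-79971119, minus strand) had 6.87, 9.87, 6.4 and 5.91 CPM in postnatal OPC and 2.89, 3.85, 3.6 and 4.26 CPM in adult NSC. The Cbx7 level in postnatal NSC was 6.53, 8.86, 12.9 and 7.68 CPM. Adult NSC was below the other 8 libraries (log2 fold change -1.30 ± 0.24, adjusted p = 0.000878 in adult NSC against postnatal NSC, and 1.00 ± 0.24, adjusted p = 0.00442 in postnatal OPC against adult NSC, edgeR). Cbx2 lay between 21.2 and 37.0 CPM in all 12 libraries and was not called.

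Promoter windows of Bmi1 and Rnf2 are set beside that of Hdac9 because they differ in the number of CG dinucleotides, the substrate of the DNA methyltransferases above. Capitals mark CG, and the Hdac9 window (minus strand, its upstream start of 2 in RefSeq) contains none.
Bmi1 promoter (chr2:18676768-18677067, plus strand): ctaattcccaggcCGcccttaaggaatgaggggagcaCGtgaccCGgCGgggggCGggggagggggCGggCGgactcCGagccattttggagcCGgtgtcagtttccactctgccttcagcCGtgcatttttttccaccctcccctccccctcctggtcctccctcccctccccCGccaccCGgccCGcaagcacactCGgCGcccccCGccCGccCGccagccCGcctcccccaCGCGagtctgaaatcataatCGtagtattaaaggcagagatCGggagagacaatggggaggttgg
Rnf2 promoter (chr1:151500942-151501241, minus strand): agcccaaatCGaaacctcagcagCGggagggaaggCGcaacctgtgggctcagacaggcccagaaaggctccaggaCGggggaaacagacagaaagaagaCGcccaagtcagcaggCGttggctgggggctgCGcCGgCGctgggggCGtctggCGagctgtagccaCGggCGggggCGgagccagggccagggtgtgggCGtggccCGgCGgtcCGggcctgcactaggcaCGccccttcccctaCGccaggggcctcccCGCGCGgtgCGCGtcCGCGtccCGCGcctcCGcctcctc
Hdac9 promoter (chr12:34917046-34917345, minus strand): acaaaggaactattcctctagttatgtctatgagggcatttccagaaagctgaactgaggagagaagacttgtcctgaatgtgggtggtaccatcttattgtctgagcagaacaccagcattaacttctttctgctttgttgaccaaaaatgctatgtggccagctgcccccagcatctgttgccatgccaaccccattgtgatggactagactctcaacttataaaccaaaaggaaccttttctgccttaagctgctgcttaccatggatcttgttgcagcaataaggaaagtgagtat
Bmi1 and Rnf2 held 23 and 30 CG, and the other Hdac9 window held 3. The median was 30 CG over the 49 member windows, against 7 over all windows and 13 over those of protein-coding genes. The GC box GGGCGG, searched on both strands, was in 77.6% of member windows, against 35.7% of all windows and 46.2% of those of protein-coding genes. Methylation itself was not measured.

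The 3 H3K4 methyltransferases among the members were higher in adult NSC than in postnatal NSC (all genes, 25.2%), and Kmt2d was lowest in postnatal OPC. Of 16 further genes of H3K4 methylation, 4 were higher and 2 lower in adult NSC against postnatal NSC (all genes, 25.2% and 27.9%). Kmt2d, an enhancer H3K4 methyltransferase (chr15:98831669-98871204, minus strand), had 61.6, 64, 49 and 50.3 CPM in postnatal OPC and 138, 145, 94 and 152 CPM in adult NSC. The Kmt2d level in postnatal NSC was 105, 96.7, 108 and 90.1 CPM. All postnatal OPC libraries were below the other 8 (log2 fold change -1.23 ± 0.15 (SE), adjusted p = 2.69e-05 against adult NSC; -0.83 ± 0.14, adjusted p = 0.000656 against postnatal NSC, edgeR), and adult NSC overlapped postnatal NSC (0.41 ± 0.14, adjusted p = 0.0305). The call of Kmt2d in adult NSC against postnatal NSC was lost without postnatal OPC 1, or adult NSC 1, 2 or 4, or postnatal NSC 1, 2 or 4 (adjusted p = 0.054 to 0.104), and with upper-quartile scaling, with no filter on low counts, with a minimum count of 50 (adjusted p = 0.0504 to 0.066). Kmt2a, which maintains Hox gene expression, averaged 114 ± 11.3 CPM in postnatal OPC, 178 ± 28.7 CPM in adult NSC and 118 ± 12.9 CPM in postnatal NSC and was higher in adult NSC than in postnatal NSC and lower in postnatal OPC than in adult NSC (0.59 ± 0.13, adjusted p = 0.00197; -0.64 ± 0.13, adjusted p = 0.00107, edgeR). Kmt2c, the paralogue of Kmt2d, averaged 107 ± 8.92 CPM in postnatal OPC, 119 ± 14.7 CPM in adult NSC and 81.3 ± 12.7 CPM in postnatal NSC and was higher than in postnatal NSC both in postnatal OPC and in adult NSC (0.40 ± 0.12, adjusted p = 0.0181; 0.55 ± 0.12, adjusted p = 0.00272, edgeR). The call of Kmt2c in postnatal OPC against postnatal NSC was lost without postnatal OPC 1, or postnatal NSC 1, 2 or 4 (adjusted p = 0.0526 to 0.0752).

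Kdm6b, an H3K27 demethylase that opposes PRC2 (chr11:69398508-69413675, minus strand), had 96.7, 139, 70.1 and 65.3 CPM in postnatal OPC and 103, 106, 91.6 and 106 CPM in adult NSC. The Kdm6b level in postnatal NSC was 153, 217, 254 and 159.5 CPM. Every postnatal NSC library was above the other 8, and Kdm6b was lower in postnatal OPC (log2 fold change -1.08 ± 0.23 (SE), adjusted p = 0.00222) and in adult NSC (log2 fold change -0.94 ± 0.23 (SE), adjusted p = 0.0043, edgeR). Both low-G1/S libraries were the highest of their groups. Without them Kdm6b was also lower in postnatal OPC than in adult NSC (-0.39, adjusted p = 0.0423), against -0.14 ± 0.23, adjusted p = 0.642 with all libraries. Kdm1a, the H3K4 demethylase of CoREST complexes, ranged from 214 to 252 CPM in postnatal OPC, 172 to 180.1 CPM in adult NSC and 199 to 214 CPM in postnatal NSC, and its adult NSC libraries were the lowest (0.37 ± 0.07, adjusted p = 0.000734 in postnatal OPC against adult NSC; -0.20 ± 0.07, adjusted p = 0.0243 in adult NSC against postnatal NSC, edgeR). The call of Kdm1a in adult NSC against postnatal NSC was lost without adult NSC 1, 2, 3 or 4 (adjusted p = 0.0538 to 0.0731).

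Of the H3K9 methyltransferases, Ehmt2 (G9a) averaged 244 ± 30.6 CPM in postnatal OPC, 202 ± 6.56 CPM in adult NSC and 314 ± 9.03 CPM in postnatal NSC (SD, n = 4 each). It was lower in postnatal OPC (-0.37 ± 0.09, adjusted p = 0.00406) and in adult NSC (-0.64 ± 0.09, adjusted p = 0.000125) than in postnatal NSC, with all postnatal NSC libraries on top, and higher in postnatal OPC than in adult NSC (0.27 ± 0.09, adjusted p = 0.0195, edgeR). The call of Ehmt2 in postnatal OPC against adult NSC was lost without adult NSC 1 or 3 (adjusted p = 0.0524 to 0.0565), and with no filter on low counts (adjusted p = 0.0541). Its partner Ehmt1 (GLP) rose in postnatal OPC against postnatal NSC (0.25 ± 0.07, adjusted p = 0.0147, edgeR), where the libraries ranged from 105 to 125 CPM, against 88.8 to 99.7 CPM. The call of Ehmt1 in postnatal OPC against postnatal NSC was lost without postnatal OPC 1 or 2, or postnatal NSC 1 or 2 (adjusted p = 0.0501 to 0.0654), and with no filter on low counts, with only the 2 groups compared in the fit, with a Y-linked covariate (adjusted p = 0.0547 to 0.1). Setdb1 rose in adult NSC against postnatal NSC (0.29 ± 0.11, adjusted p = 0.0476, edgeR), and this call was the least stable of the module. The call of Setdb1 in adult NSC against postnatal NSC was lost without postnatal OPC 1, 2, 3 or 4, or adult NSC 1, 2, 3 or 4, or postnatal NSC 1, 2 or 3 (adjusted p = 0.0546 to 0.165), and with upper-quartile scaling, with no filter on low counts, with a minimum count of 50, with only the 2 groups compared in the fit, without both low-G1/S libraries, with a Y-linked covariate, with a G1/S covariate (adjusted p = 0.0795 to 0.117).

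The class II and IV HDACs among the members, Hdac4, Hdac5, Hdac7, Hdac9 and Hdac11, held the largest differences of the module. Other HDACs, Hdac10 among them, were not members and were read with the further HDAC genes below. All 5 were called in postnatal OPC against adult NSC, 4 lower and 1 higher (all genes, 24.7% and 26.3%). Their median log2 fold change was -1.21, against 0.01 over all genes tested. Against postnatal NSC, 3 of 5 were lower in postnatal OPC (all genes, 22.7%). In adult NSC against postnatal NSC, 3 were higher and 1 was lower (all genes, 25.2% and 27.9%). Hdac5, a class IIa deacetylase whose location responds to calcium signalling (chr11:102194432-102230166, minus strand), had 59.9, 79.1, 44.6 and 34.1 CPM in postnatal OPC and 159.8, 164, 151 and 172 CPM in adult NSC. The Hdac5 level in postnatal NSC was 156, 150.5, 132 and 164 CPM. All postnatal OPC libraries were below the other 8 (log2 fold change -1.47 ± 0.20 (SE), adjusted p = 0.000123 against postnatal NSC; -1.57 ± 0.20, adjusted p = 4.91e-05 against adult NSC, edgeR), and both neurosphere groups overlapped.

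Hdac7, also of class IIa (chr15:97792664-97844502, minus strand), had 31.3, 25.4, 29.5 and 24.5 CPM in postnatal OPC and 61.6, 58.5, 64.6 and 72 CPM in adult NSC. The Hdac7 level in postnatal NSC was 47.5, 54, 52 and 54.5 CPM. The 3 groups did not overlap, with postnatal OPC lowest (log2 fold change -0.91 ± 0.10 (SE), adjusted p = 3.03e-05 against postnatal NSC; -1.21 ± 0.10, adjusted p = 1.73e-06 against adult NSC, edgeR) and adult NSC highest (0.30 ± 0.10, adjusted p = 0.022 against postnatal NSC). The call of Hdac7 in adult NSC against postnatal NSC was lost without adult NSC 4, or postnatal NSC 1 or 2 (adjusted p = 0.0545 to 0.0862), and with upper-quartile scaling, with no filter on low counts, with a minimum count of 50 (adjusted p = 0.0529 to 0.0774). Hdac9, a class IIa member with a known role as a corepressor of MEF2 in muscle (chr12:34047580-34917095, minus strand), had 11.4, 7.38, 11.1 and 11 CPM in postnatal OPC and 34.7, 35.6, 30.6 and 34.1 CPM in adult NSC. The Hdac9 level in postnatal NSC was 19, 19.9, 23.1 and 22 CPM. Its groups did not overlap either, in the same order (log2 fold change -1.04 ± 0.14 (SE), adjusted p = 9.5e-05 and -1.73 ± 0.14, adjusted p = 1.3e-06 for postnatal OPC, 0.68 ± 0.13, adjusted p = 0.00123 for adult NSC against postnatal NSC, edgeR). Hdac4 was higher in adult NSC (44.1 to 49.7 CPM) than in postnatal OPC (30.8 to 37.3 CPM) and postnatal NSC (32.8 to 39.9 CPM), at -0.49 ± 0.09, adjusted p = 0.000897 in postnatal OPC against adult NSC and 0.35 ± 0.09, adjusted p = 0.00734 in adult NSC against postnatal NSC (edgeR). Exons of another gene on the opposite strand cover 22.4% of those of Hdac4.

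Hdac11, the class IV deacetylase known from mature oligodendrocytes (chr6:91156665-91174692, plus strand), went the other way, with 15.7, 24.2, 14.8 and 11.1 CPM in postnatal OPC and 3.71, 3.12, 5.35 and 4.32 CPM in adult NSC. The Hdac11 level in postnatal NSC was 13.3, 18.4, 19.8 and 9.82 CPM. Adult NSC lay below the other 8 libraries (log2 fold change -1.89 ± 0.28 (SE), adjusted p = 0.000241 against postnatal NSC; 2.00 ± 0.29, adjusted p = 0.000116 for postnatal OPC against adult NSC, edgeR), and postnatal OPC overlapped postnatal NSC. Hdac11 had only 60 to 95 counts in the adult NSC libraries. Exons of other genes on the opposite strand cover 17.9% of those of Hdac11. Summed markers of mature oligodendrocytes were 327 to 642 CPM in postnatal OPC, 161 to 202 CPM in adult NSC and 352 to 1059 CPM in postnatal NSC, and their part in the Hdac11 level was not tested.

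**Figure D3:**
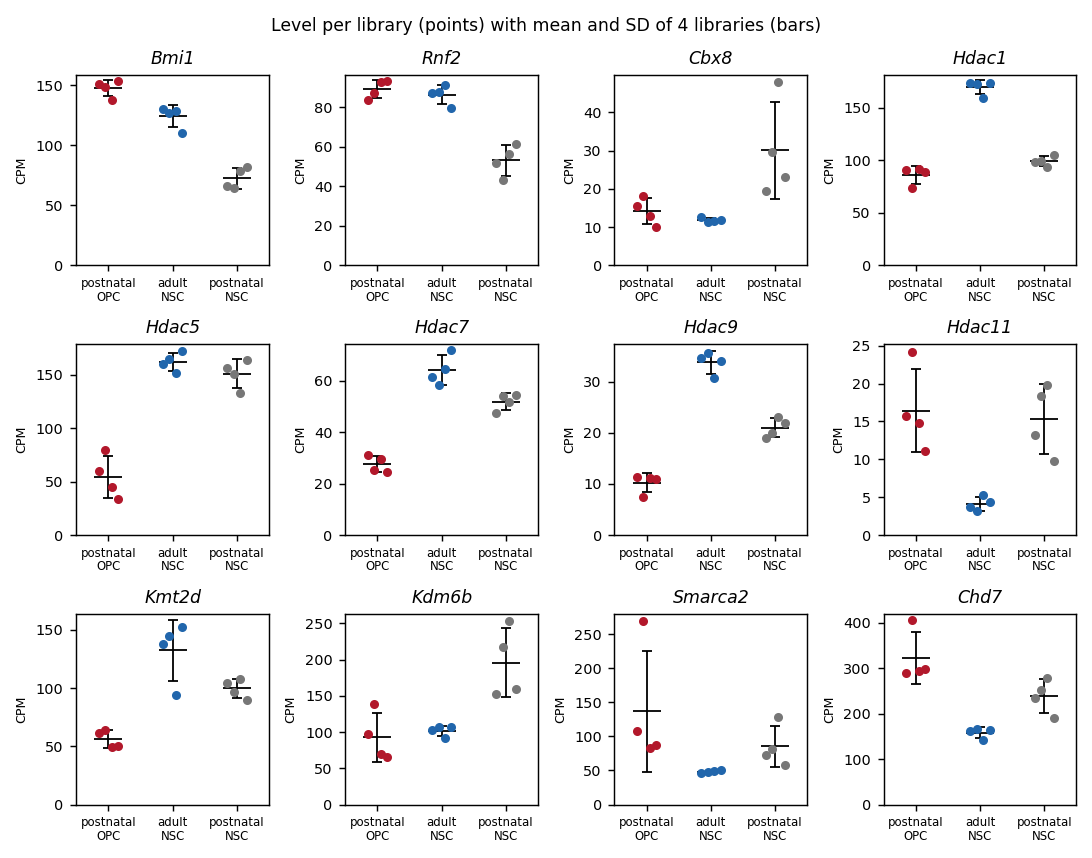
CPM (vertical axes, from 0) of 12 members in each library, grouped as postnatal OPC, adult NSC and postnatal NSC, with points for libraries and bars for the mean and SD of 4. Postnatal OPC is lowest for Hdac5, Hdac7, Hdac9 and Kmt2d, adult NSC is lowest for Hdac11 and highest for Hdac1, and postnatal NSC is lowest for Bmi1 and Rnf2.

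Among the class I HDACs, Hdac1 averaged 86 ± 8.62 CPM in postnatal OPC, 169 ± 6.83 CPM in adult NSC and 99.1 ± 4.77 CPM in postnatal NSC (SD, n = 4 each), with all adult NSC libraries above the other 8. It was lower in postnatal OPC than in adult NSC (-0.98 ± 0.08, adjusted p = 1.63e-06) and higher in adult NSC than in postnatal NSC (0.77 ± 0.08, adjusted p = 2.39e-05, edgeR). Other loci, most of them unnamed copies, share 35.3% of the 50-base stretches of Hdac1, so that its level is uncertain. Hdac2, its partner in Sin3, NuRD and CoREST complexes, averaged 234 ± 13.7 CPM in postnatal OPC, 248 ± 13.4 CPM in adult NSC and 193 ± 21.5 CPM in postnatal NSC and was higher than in postnatal NSC in both other groups (0.28 ± 0.09, adjusted p = 0.0214 for postnatal OPC; 0.36 ± 0.09, adjusted p = 0.00439 for adult NSC, edgeR). The call of Hdac2 in postnatal OPC against postnatal NSC was lost without postnatal OPC 1 or 4, or postnatal NSC 1 or 2 (adjusted p = 0.0591 to 0.0996), and with no filter on low counts, with only the 2 groups compared in the fit, with a Y-linked covariate (adjusted p = 0.065 to 0.0994). Hdac3, the enzyme of NCoR complexes, was higher in postnatal OPC than in adult NSC (0.23 ± 0.06, adjusted p = 0.00674, edgeR), at 111 to 121 CPM, against 95.2 to 103 CPM. The call of Hdac3 in postnatal OPC against adult NSC was lost with no filter on low counts (adjusted p = 0.0544). Sirt1, an NAD-dependent deacetylase, was higher in postnatal OPC (26.9 to 29.5 CPM) than in postnatal NSC (18.3 to 25.6 CPM; 0.41 ± 0.11, adjusted p = 0.00946, edgeR).

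Of 6 BAF complex genes, 4 were higher and 1 was lower in postnatal OPC than in adult NSC, where 26.3% of all genes tested were higher and 24.7% lower. Smarca2, one of the alternative BAF ATPases (chr19:26605050-26778322, plus strand), had 108, 269, 83.6 and 87.8 CPM in postnatal OPC and 46.1, 47.4, 49.4 and 50.6 CPM in adult NSC. The Smarca2 level in postnatal NSC was 73, 81.2, 129 and 58.3 CPM. Postnatal OPC was above adult NSC without overlap (log2 fold change 1.50 ± 0.35 (SE), adjusted p = 0.00365, edgeR). The level in postnatal OPC 2, a low-G1/S library, was far above the rest. Without both low-G1/S libraries the fold change was 0.95, adjusted p = 3.17e-05 in postnatal OPC against adult NSC. Smarca2 then also passed the threshold in postnatal OPC against postnatal NSC (0.39, adjusted p = 0.0178) and in adult NSC against postnatal NSC (-0.56, adjusted p = 0.00146), where it was not called with all libraries (0.68 ± 0.35, adjusted p = 0.124; -0.82 ± 0.35, adjusted p = 0.0642, edgeR).

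Smarca4 (Brg1), the other ATPase, stayed between 398 and 507 CPM in all 12 libraries and was not called. Smarcd3, a subunit tied to cell type (chr5:24590818-24624411, minus strand), had 57.4, 57.2, 50.7 and 50.2 CPM in postnatal OPC and 33.1, 32.8, 32.1 and 36.1 CPM in adult NSC. The Smarcd3 level in postnatal NSC was 69.3, 80.3, 98 and 55.4 CPM. Adult NSC was below the other 8 libraries (log2 fold change -1.18 ± 0.14 (SE), adjusted p = 6.99e-05 against postnatal NSC; 0.68 ± 0.14, adjusted p = 0.00177 for postnatal OPC against adult NSC, edgeR), and postnatal OPC was lower than postnatal NSC with overlap (-0.49 ± 0.14, adjusted p = 0.0135). The call of Smarcd3 in postnatal OPC against postnatal NSC was lost with a Y-linked covariate (adjusted p = 0.118). Exons on the opposite strand, mainly of Chpf2, cover 48.2% of those of Smarcd3, and the strand setting of the counting is not given in the sources used here.

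Smarcc1, a core scaffold of BAF, averaged 342 ± 22.4 CPM in postnatal OPC, 283 ± 3.15 CPM in adult NSC and 231 ± 37.4 CPM in postnatal NSC and was higher in postnatal OPC than in postnatal NSC (0.56 ± 0.10, adjusted p = 0.000893), with smaller steps in adult NSC against postnatal NSC (0.29 ± 0.10, adjusted p = 0.0307) and postnatal OPC against adult NSC (0.27 ± 0.10, adjusted p = 0.0417, edgeR). The call of Smarcc1 in adult NSC against postnatal NSC was lost without postnatal OPC 1, or adult NSC 1, 2, 3 or 4, or postnatal NSC 1, 2 or 3 (adjusted p = 0.0547 to 0.131), and with upper-quartile scaling, with no filter on low counts, with a minimum count of 50, with only the 2 groups compared in the fit, without both low-G1/S libraries, with a Y-linked covariate, with a G1/S covariate (adjusted p = 0.0503 to 0.0868). The call of Smarcc1 in postnatal OPC against adult NSC was lost without postnatal OPC 3 or 4, or adult NSC 1, 2, 3 or 4 (adjusted p = 0.063 to 0.116), and with no filter on low counts, with a Y-linked covariate (adjusted p = 0.0792 to 0.0852). The alternative DNA-binding subunits moved in opposite directions. Arid1b was higher in postnatal OPC (78.4 to 96.6 CPM) than in adult NSC (56.0 to 62.1 CPM) and postnatal NSC (57.3 to 80.4 CPM), at 0.60 ± 0.11, adjusted p = 0.00071 and 0.38 ± 0.11, adjusted p = 0.0134 (edgeR). The call of Arid1b in postnatal OPC against postnatal NSC was lost without postnatal OPC 1, or postnatal NSC 2 or 4 (adjusted p = 0.0604 to 0.0734), and with a Y-linked covariate (adjusted p = 0.0557). Arid1a was lower in postnatal OPC (181 to 210.1 CPM) than in adult NSC (238 to 278 CPM) and postnatal NSC (219 to 273 CPM), at -0.44 ± 0.09, adjusted p = 0.00146 and -0.35 ± 0.09, adjusted p = 0.00629 (edgeR).

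Chd7, a remodeller that cooperates with Sox10 in myelination (chr4:8690406-8867659, plus strand), had 290.4, 407, 294 and 299 CPM in postnatal OPC and 161, 167, 141 and 164 CPM in adult NSC. The Chd7 level in postnatal NSC was 235, 253, 279 and 190.0 CPM. The 3 groups did not overlap. It was higher in postnatal OPC than in adult NSC (log2 fold change 1.03 ± 0.14 (SE), adjusted p = 6.42e-05) and postnatal NSC (0.43 ± 0.13, adjusted p = 0.0199), and lower in adult NSC than in postnatal NSC (-0.59 ± 0.13, adjusted p = 0.00309, edgeR). The call of Chd7 in postnatal OPC against postnatal NSC was lost without postnatal OPC 2, or postnatal NSC 1 or 4 (adjusted p = 0.0571 to 0.0739), and with only the 2 groups compared in the fit (adjusted p = 0.0558). Chd8, its relative, lay between 129 and 189.8 CPM and was not called. The acetyltransferases Crebbp and Ep300 and Ankrd11 were not called in any comparison, with log2 fold changes of -0.27 to 0.22, and their ranges over all libraries were 58.0 to 96.5, 105 to 156 and 260.1 to 356 CPM.

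Levels of different genes can be compared only per length of exon. On this scale Smarca4 was the highest member in each group, at 66.6 ± 6.01 CPM per kb in postnatal OPC, 67.9 ± 2.34 in adult NSC and 72.3 ± 5.06 in postnatal NSC (SD, n = 4 each). Hdac2 was next in postnatal OPC and adult NSC and Ehmt2 in postnatal NSC. Dnmt3b, Cbx7 and Ezh1 were among the lowest 4 of the 44 in each group, at under 2 CPM per kb, joined by Hdac9 in postnatal OPC and postnatal NSC and by Hdac11 in adult NSC. Since the annotated exons of all isoforms were pooled, these levels depend on which isoform is used.

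Ratios of related genes within a library do not depend on scaling or depth. Of 13 pairs in 3 comparisons, 27 of 39 ratios differed at an adjusted p of 0.0413 in an exact two-sided permutation test of 4 against 4 libraries, which is the smallest value it can give (unadjusted 0.0286). They were 7 in postnatal OPC against postnatal NSC, 9 in adult NSC against postnatal NSC and 11 in postnatal OPC against adult NSC. With 1 library left out the test cannot reach the threshold. Ratios of other pairs of genes were not tested, so that 27 of 39 does not set these pairs apart from others. The log2 ratio of Kmt2c to Kmt2d per kb averaged 0.91 ± 0.19 in postnatal OPC and -0.33 ± 0.13 in postnatal NSC (difference 1.24, exact permutation adjusted p = 0.0413). The ratio of Arid1b to Arid1a averaged -1.28 ± 0.08 in postnatal OPC and -2.32 ± 0.12 in adult NSC (difference 1.03, exact permutation adjusted p = 0.0413). That of Hdac5 to Hdac4 averaged 1.48 ± 0.57 in postnatal OPC and 2.88 ± 0.11 in postnatal NSC (difference -1.40, exact permutation adjusted p = 0.0413).

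In adult NSC against postnatal NSC, the largest shift of a ratio was that of Rnf2 to Ring1, which averaged 2.13 ± 0.18 in adult NSC and 0.70 ± 0.47 in postnatal NSC (difference 1.44, exact permutation adjusted p = 0.0413). The ratio of Ezh1 to Ezh2 averaged -4.71 ± 0.07 in adult NSC and -3.56 ± 0.61 in postnatal NSC (difference -1.15, exact permutation adjusted p = 0.0413), so that Ezh2 exceeded Ezh1 per kb in each group. Smarca2 to Smarca4 averaged -2.97 ± 0.66 in postnatal OPC and -4.32 ± 0.05 in adult NSC (difference 1.35, exact permutation adjusted p = 0.0413). The ratio of Tet1 to Tet3 passed in no comparison.

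**Figure D4:**
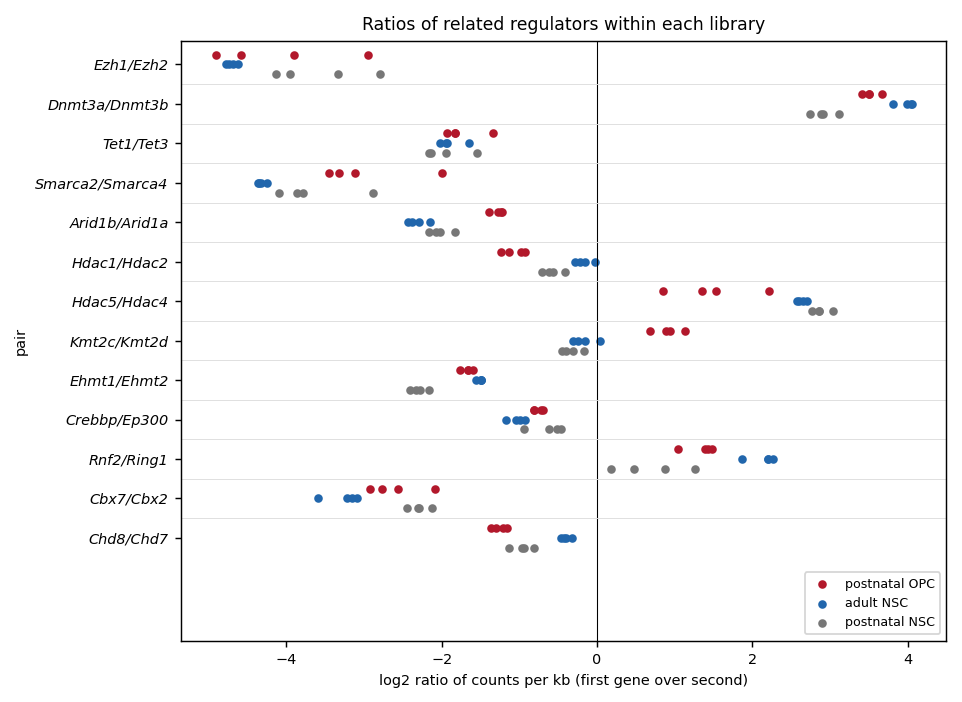
Log2 ratio of counts per kb of exon (horizontal axis, 0 at equal levels) for 13 pairs of related genes (rows), with 1 point for each library, coloured by group. Postnatal OPC stands to the right of both neurosphere groups for Arid1b/Arid1a and Kmt2c/Kmt2d and to the left for Hdac5/Hdac4 and Hdac1/Hdac2, while Tet1/Tet3 overlaps in all 3 groups.

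The pair of libraries with low G1/S genes differed from the other libraries of their groups in many members. In 15 of 44 members both were above all others of their own group, among them Ezh1, Cbx7, Cbx8, Tet2, Kdm6b, Hdac11, Smarca2 and Chd7, and in 5 both were below (Dnmt1, Eed, Hdac1, Hdac4 and Setdb1). In 6 members both lay within the range of the others, Bmi1, Rnf2 and Hdac7 among them. These positions were not counted over all genes, so that the counts do not set the members apart from other genes. Without both libraries, 13 members were higher and 12 lower in postnatal OPC against postnatal NSC, 17 higher and 14 lower in adult NSC against postnatal NSC, and 15 higher and 14 lower in postnatal OPC against adult NSC. In that fit, 54.4% of all genes tested were called in postnatal OPC against postnatal NSC (26.4% higher and 28.0% lower), 58.0% in adult NSC against postnatal NSC (27.8% and 30.1%) and 55.6% in postnatal OPC against adult NSC (28.0% and 27.5%), so that calls over all genes became more frequent as well. The stage, density or handling of those 2 libraries is not given in the labels.

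Several members gained a call in that fit that they lacked with all libraries. In adult NSC against postnatal NSC these included Tet1 (0.31, adjusted p = 0.0192), Sirt1 (0.30, adjusted p = 0.0148) and Ep300 (0.28, adjusted p = 0.0126). Those in postnatal OPC against adult NSC included Tet2 (0.39, adjusted p = 0.0382) and Ep300 (-0.36, adjusted p = 0.00292), and in postnatal OPC against postnatal NSC Ezh2 (0.22, adjusted p = 0.0469) and Smarca4 (-0.22, adjusted p = 0.0155, edgeR). Leaving out postnatal OPC 2 alone gave a call to Ezh1 (-0.70, adjusted p = 0.0472), Ezh2 (0.23, adjusted p = 0.0423) and Smarca4 (-0.21, adjusted p = 0.0389) in postnatal OPC against postnatal NSC, to Smarca2 (-0.86, adjusted p = 0.00357) and Hdac3 (-0.17, adjusted p = 0.0213) in adult NSC against postnatal NSC, and to Ep300 (-0.36, adjusted p = 0.0111) in postnatal OPC against adult NSC. Leaving out postnatal NSC 3 alone gave one to Hdac1 (-0.24, adjusted p = 0.033) and Smarca2 (0.95, adjusted p = 0.0408) in postnatal OPC against postnatal NSC, and to Sirt1 (0.31, adjusted p = 0.0177) in adult NSC against postnatal NSC. The same step gave one in postnatal OPC against adult NSC to Tet2 (0.58, adjusted p = 0.0188), Ezh1 (0.74, adjusted p = 0.04), Cbx2 (0.31, adjusted p = 0.0481) and Ep300 (-0.27, adjusted p = 0.0463).

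**Figure D5:**
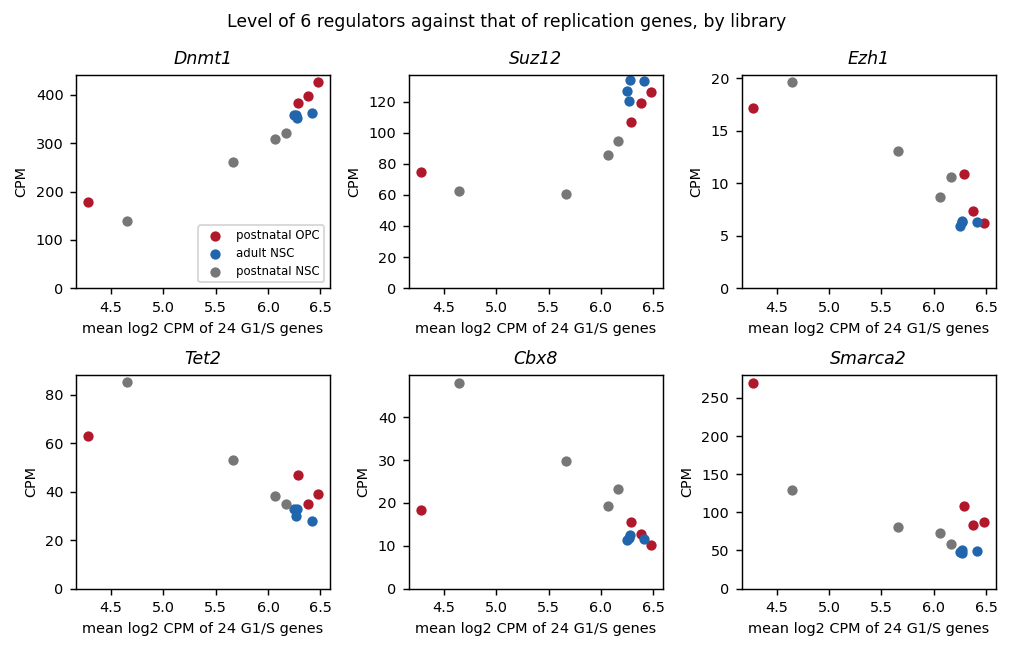
CPM of 6 members (vertical axes, from 0) against the mean log2 CPM of 24 G1/S genes (horizontal axes), with 1 point for each of the 12 libraries, coloured by group. The libraries at 4.28 (postnatal OPC 2) and 4.65 (postnatal NSC 3) have the lowest Dnmt1 and the highest Ezh1, Tet2 and Smarca2.

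Other genes of the same machinery were read from 9 lists of 138 genes, of which 137 were tested. Of these, 33 were higher and 18 lower in postnatal OPC against postnatal NSC (45.1% of all genes called), 36 and 41 in adult NSC against postnatal NSC (53.1%), and 39 and 26 in postnatal OPC against adult NSC (51.0%). Without both low-G1/S libraries these were 43 and 32 (54.4% of all genes called), 38 and 44 (58.0%), and 47 and 30 (55.6%). Of 20 further BAF subunits, 8 were higher and 0 lower in postnatal OPC against postnatal NSC (all genes, 22.4% and 22.7%), and 12 were higher and 3 lower in postnatal OPC against adult NSC (all genes, 26.3% and 24.7%). Actl6b, the BAF actin subunit of neurons, was higher in postnatal OPC by 1.44 ± 0.43 against postnatal NSC and 4.63 ± 0.59 against adult NSC (log2 ± SE).

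Remodellers of the CHD and ISWI families included Chd5 and Smarca1, both known from neurons, which were higher in postnatal OPC than in adult NSC by 2.62 ± 0.27 and 2.40 ± 0.16 and than in postnatal NSC by 1.90 ± 0.25 and 1.77 ± 0.15. Baz1a and Chd9 were lower in postnatal OPC than in adult NSC (-1.57 ± 0.21 and -0.86 ± 0.10). Of the 15 genes of this list, 3 were higher and 7 lower in postnatal OPC against adult NSC (all genes, 26.3% and 24.7%). Summed neuroblast and neuron markers were 98.2 to 256 CPM in postnatal OPC, 28.4 to 38.9 CPM in adult NSC and 65.8 to 195 CPM in postnatal NSC, and their part in these levels was not tested.

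Of 20 further HDAC and corepressor genes, 1 was higher and 10 were lower in adult NSC against postnatal NSC (all genes, 25.2% and 27.9%), the lower ones including the deacetylase Sirt2 (-1.62 ± 0.28), the CoREST gene Rcor2 (-1.31 ± 0.20) and Hdac10 (-1.11 ± 0.16). In postnatal OPC against postnatal NSC 1 was higher and 6 were lower (all genes, 22.4% and 22.7%). Among DNA methylation genes, the stress-induced Gadd45b was lower than in postnatal NSC in postnatal OPC (-2.41 ± 0.33) and in adult NSC (-2.96 ± 0.35). Tdg, the glycosylase that removes oxidised methylcytosine, was higher in adult NSC than in postnatal NSC (1.18 ± 0.09) and lower in postnatal OPC than in adult NSC (-1.24 ± 0.09).

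Calls of further PRC1 genes ran in both directions, as those of the members did. Pcgf2, the alternative to Bmi1, was lower in adult NSC than in postnatal NSC (-1.75 ± 0.35) and higher in postnatal OPC than in adult NSC (1.57 ± 0.35). Of 15 further PRC1 genes 3 were higher and 2 lower in postnatal OPC against postnatal NSC (all genes, 22.4% and 22.7%). They were 4 and 5 in adult NSC against postnatal NSC (all genes, 25.2% and 27.9%). In postnatal OPC against adult NSC they were 3 and 3 (all genes, 26.3% and 24.7%). In the lists of PRC2 accessory genes (8), COMPASS genes (16), heterochromatin genes (16), and acetyltransferases and BET genes (12), the higher and lower calls together numbered at most 10 in any comparison. Over all genes, 45.1%, 53.1% and 51.0% were called in the same order of comparisons. Heterochromatin genes had 7 higher and 0 lower in postnatal OPC against postnatal NSC (all genes, 22.4% and 22.7%), Zfp644, a partner of G9a, by the most (0.85 ± 0.09). Without the low-G1/S libraries, 7 were higher and 3 lower (all genes, 26.4% and 28.0%).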

How the data were processed

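Poly(A) RNA of 12 cultures was made into stranded libraries, per the labels' protocols. The submitters' processing notes name FastQC, STAR, featureCounts 1.22.2 and the GRCm38 build. Settings, annotation release and the handling of strand and of multiply mapped reads are not given in the sources used here. The deposited table holds raw counts per gene and library, not normalized. Of 55401 identifiers, 55141 were in GENCODE M21, which gave symbols, exons and coordinates.

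The 44 members, the lists of other regulators and markers, and the alternatives were chosen with earlier results of these data known. Genes were kept by filterByExpr (minimum count 10, minimum total 15) and scaled by TMM. One quasi-likelihood fit in edgeR 4.0.16 (R 4.3.3, limma 3.58.1) to all 12 libraries, with a term per group, was tested two-sided for 3 contrasts, with Benjamini-Hochberg adjustment over 16135 genes and calls under 0.05. The biological coefficient of variation was 22.6%. Before use the fit was checked on simulated data. Totals per library were 16756231 to 54801726 counts, so that for members with many counts precision was set mainly by the spread between libraries. For members with few, such as Dnmt3b (55 to 68 counts in adult NSC) and Cbx7 (53 to 74), the sampling of reads also limits it.

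Paralogue ratios used counts per kb and an exact permutation test (SciPy 1.17.1), adjusted over 39 tests. Alternatives were RLE and upper-quartile scaling, no filter, a minimum count of 50, DESeq2 1.42.0, a fit to the 2 groups compared, a replicate block, thinning to 16756231 counts, Y-linked and G1/S covariates, and leaving out each library or both low-G1/S libraries. Library values are given for members called with a log2 fold change of at least 1 in size and for the DNA methyltransferases, TET enzymes and PRC2 core, and of each list of other regulators up to 3 called members per direction could be named. Some genes of these lists are counted but not reported here by name. No library was treated as a duplicate, since any pair within a group differed beyond sampling (lowest chi-square over its degrees of freedom 3.98).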

Additional observations from a re-analysis of the deposited data

Results flagged for a closer look

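In 9 of 132 combinations of a member and a group of 4 libraries, 1 library stood far from the other 3 by Dixon's test (gap to the nearest library over the group's range, on log2 CPM). Chance alone gives about 6.6 such combinations, or 1 in 20.

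Of these, 4 were in postnatal OPC 2, the postnatal OPC library with low G1/S genes. It was the lowest of its group for Dnmt1 (ratio 0.875), Hdac1 (0.869) and Hdac9 (0.903), and the highest for Chd7 (0.918). Adult NSC 3 was the lowest of its group for Hdac1 (0.906), Arid1a (0.89) and Ep300 (0.84). Adult NSC 4 was the lowest for Bmi1 (0.843), and postnatal OPC 4 was the highest for Smarcc1 (0.876). The part of any library property in these values was not tested.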

How the results depend on the processing

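Of 3036 fold changes of members recomputed under 23 alternatives per comparison, 2839 kept their side of the threshold, 120 lost the call and 77 gained one. Among the 2839 were 61 values called in neither fit that changed sign. Of the values called in either fit, 0 changed sign. Called under all alternatives were 12 of 21 members in postnatal OPC against postnatal NSC, 21 of 27 in adult NSC against postnatal NSC and 19 of 23 in postnatal OPC against adult NSC. The counts of members higher or lower stayed within 1.5 times the reported ones, except the count higher in postnatal OPC against postnatal NSC, reported as 10. It was 6 with only the 2 groups compared in the fit and 6 with the Y-linked covariate, and 5 to 10 when single libraries were left out (5 without postnatal OPC 1 or without postnatal NSC 2, 6 without postnatal NSC 1). The causes were not tested. With the replicate block, 10 members were higher and 11 lower in postnatal OPC against postnatal NSC, 15 and 12 in adult NSC against postnatal NSC, and 11 and 11 in postnatal OPC against adult NSC, where Bmi1 lost its call. Libraries with the same number did not deviate together (r = -0.36 to 0.32), so that the numbers were not taken as pairs. Ratios of raw counts differ from those per kb by a constant for each pair, so that this alternative (27 passed) was no test of stability. Depth differed between postnatal NSC and the other groups, and at equal depth the counts were 10 and 11, 15 and 13, and 12 and 11 in the same order.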
